A study of Homo sapiens with 39 samples.

Results

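The circadian clock genes described here are ARNTL (BMAL1), CLOCK, NPAS2, PER1, PER2, PER3, CRY1, CRY2, BHLHE40 (DEC1) and DBP. They were taken by gene name, with earlier results of these data known, and make up 10 of the 45435 gene rows of the deposited tables. All 10 were found in every table, and all 10 passed the filter on low values. Their mRNA was measured in HCT116 cells, a human colorectal cancer line. The parental group, labelled Empty Control, was the Flp-In T-REx host of all the lines and carries no HNF4A construct. Each of 12 further groups was 1 stable line in which doxycycline switches on 1 isoform of the nuclear receptor HNF4A (hepatocyte nuclear factor 4 alpha) fused to GFP. All 13 groups had 3 RNA-seq libraries and received 2.5 µg/ml doxycycline for 48 h, with the selection antibiotics withdrawn at induction. Until induction blasticidin was used in every culture, together with zeocin for the parental cells and with hygromycin B for the lines. No group expressed GFP alone. Effects of GFP, of the earlier antibiotics and of deriving a line therefore cannot be told apart from an effect of the isoform. The labels give neither the hour of harvest nor any synchronisation of the cells.

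The mammalian clock is a transcriptional feedback loop that runs in most cells, those of the intestine included. ARNTL pairs with CLOCK, or with its paralogue NPAS2, and the pair binds E-box sequences to drive the PER and CRY genes, BHLHE40 and the output gene DBP. PER and CRY proteins then accumulate and repress the pair, and BHLHE40 competes for E-boxes, so that the mRNA of these genes oscillates over the day in synchronised cells. HNF4A is a receptor of liver and gut epithelium whose protein has been reported to repress CLOCK:ARNTL activity. Each line was set against the parental cells to see how far the clock genes differ once an HNF4A isoform is present, and how this compares with all other genes.

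E-boxes were looked for in RefSeq windows of 300 bases (250 before to 50 after each annotated start, GRCh38.p14), in which all 10 genes were matched and held 14 windows. The letters CACGTG, the same on both strands, stood in 2 of the 14 windows, 1 each of PER1 and BHLHE40. The variant CACGTT, or AACGTG on the other strand, stood in 4 of the 14 windows, 1 each of CLOCK, PER2, CRY1 and CRY2. Of all 35116 windows, 7.26% held CACGTG, 5.34% held the variant and 12.18% held either, and 1 position can match only 1 of the 2 motifs. The 4 stretches of 30 bases below are shown because PER1 and BHLHE40 carry the E-box letters, and because CLOCK and CRY1, which carry the variant, were the members whose levels ran most nearly opposite to each other over the groups. Capitals mark the motif, and each stretch is written along the strand of its gene. A match describes the letters only and is not evidence of binding.
PER1 (chr17:8152560-8152589, minus strand, motif 173 bases before the start): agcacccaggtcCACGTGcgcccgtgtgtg
BHLHE40 (chr3:4979187-4979216, plus strand, motif 245 bases before the start): tccaaCACGTGagactcatgtgatgaagcc
CLOCK (chr4:55546102-55546131, minus strand, motif 187 bases before the start): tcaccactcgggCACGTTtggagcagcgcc
CRY1 (chr12:107093621-107093650, minus strand, motif 89 bases before the start): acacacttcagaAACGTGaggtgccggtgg

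The level of HNF4A, summed over its 12 rows, served as a check that each line expressed a construct. The sum cannot tell isoforms apart, so it does not check which isoform a line carried. The parental cells had 31.5 ± 0.592 TPM (SD, n = 3) and the line means ran from 614 TPM in isoform 2 to 1071 TPM in isoform 6, higher in 12 of 12 lines by limma. The lowest library of a line was isoform 3 replicate 1, at 407 TPM. The epithelial marker EPCAM stood at 514 ± 11.0 TPM in parental cells, whereas the leukocyte markers PTPRC and CD3E stood at 0.065 and 0 TPM and the endothelial marker VWF at 0.313 TPM. The other 3 markers of other cell types were COL3A1, at 0.383 TPM, and 2 that were high enough to be tested. Of these the endothelial PECAM1, at 2.32 TPM, rose in 5 lines, by up to 1.02 in isoform 1, and fell in 2, and the fibroblast collagen COL1A1, at 12.96 TPM, fell in 3 lines. Of the 5 epithelial markers, KRT19 passed a change of 1, rising by 1.005 in isoform 7. At limma adjusted p under 0.05 alone these 5 went both ways. KRT19 was higher in 10 lines and lower in 1, KRT8 in 6 and 5, and KRT18 in 5 and 6. CDH1 was higher in 4 and lower in 1, and EPCAM in 4 and 2. All 5 were lower in isoform 6 and higher in isoforms 1, 7 and 11. The part of these markers in the results below was not tested. TPM is a level per transcript length scaled to a fixed sum in each library, so it can be compared between genes, and the read depth behind it is unknown. The labels do not say that replicates came from separate cultures, so p-values here measure the spread between these libraries.

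In parental cells the clock genes covered a range from 6.07 to 46.4 TPM. CRY1, a core repressor, was the most abundant at 46.4 ± 1.30 TPM, followed by BHLHE40 at 26.9 ± 1.30, PER1 at 24.9 ± 0.179 and ARNTL at 20.0 ± 0.584 (all SD, n = 3). DBP stood at 12.1 ± 0.467, CRY2 at 10.6 ± 1.12, PER2 at 8.76 ± 0.680, NPAS2 at 7.60 ± 0.457, PER3 at 6.31 ± 0.281 and CLOCK at 6.07 ± 0.639 TPM. ARNTL was thus more abundant than either of its partners in these cells, and CRY1 than CRY2. Over all 39 libraries the lowest value of any member was 4.25 TPM, for PER3, so no member approached 0. In the sum of RNA from a culture, fewer cells with a transcript and less of it per cell cannot be told apart.

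The clock genes moved by small amounts. None of the 120 pairs of a member and a line passed adjusted p under 0.05 together with a change of 1 on the log2(TPM + 1) scale. That rule was passed by 1.51% of all gene-line pairs. Of the 120, 36 had an unadjusted p under 0.05 by limma. The share of all gene-line pairs under that limit was not computed, but cannot be less than the 30.7% with adjusted p under 0.05. The largest change was that of BHLHE40 in isoform 2, -0.62, and no 95% interval (unadjusted) of the 120 reached 1 in either direction. With adjusted p under 0.05 alone, which is what "rose" and "fell" mean from here on, 7 pairs rose and 21 fell (limma, Benjamini-Hochberg). The backgrounds over all gene-line pairs were 12.8% higher and 17.9% lower, 30.7% in either direction, and the members' shares were 5.83% higher and 17.5% lower. The members' share of higher pairs lay under the background, and their share of lower pairs was close to it. Median-of-ratios scaling between libraries gave 9 pairs higher and 15 lower, so that the share of higher calls moved from 25% to 37.5%. Background shares with that scaling were not computed. The median of all tested genes lay at -0.107 in isoform 1 and -0.09 in isoform 2, and at -0.007 and -0.009 with that scaling; directions given below are relative to the parental TPM.

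The lines differed in how many clock genes moved. In isoform 1, 1 member rose and 4 fell, where 58.5% of all genes passed in either direction. Isoform 2 had 2 higher and 4 lower, against a background of 55.3%. Isoform 4 had 1 higher and 4 lower, against 16.3%, and isoform 5 had 1 higher and 2 lower, against 14.8%. In isoforms 6 and 12 no member passed, against 10.1% and 14.6%. The other 6 lines had 1 or 2 members past the test each. A single member passed for isoforms 3, 10 and 11, against backgrounds of 26%, 37.3% and 38.5%. A pair of members passed for isoforms 7, 8 and 9, against 39.6%, 34.4% and 22.7%. The median absolute change of the members was 0.204 in isoform 2 and 0.149 in isoform 4, beside 0.219 and 0.102 for all genes. All 12 comparisons share the same 3 parental libraries.

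**Figure D1:**
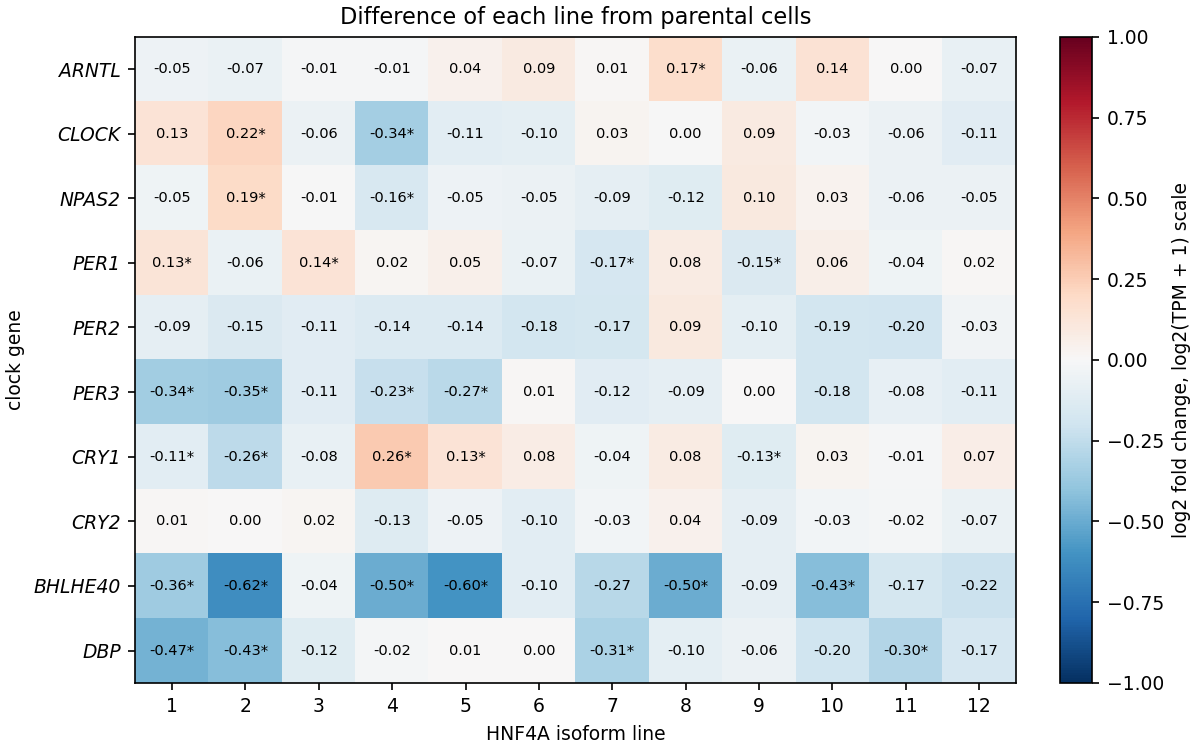
Log2 fold change (log2(TPM + 1) scale) of each clock gene (rows) in each HNF4A isoform line (columns) against parental cells, 3 libraries per group; an asterisk marks limma adjusted p under 0.05, and the colour scale runs from -1 to 1. The BHLHE40 row is negative in all 12 lines, and no cell exceeds 0.62 in size.

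Of the activators, ARNTL (chr11:13276652-13387266, GRCh38, GENCODE 29, as for the positions below), the partner shared by CLOCK and NPAS2, was the steadiest. Its group means ran from 19.0 TPM in isoform 12 to 22.7 TPM in isoform 8, and in no neighbouring pair of the ordered groups were the libraries separate. The parental libraries had 19.5, 20.7 and 19.9 TPM and those of isoform 8 had 23.6, 21.1 and 23.5 TPM, all above the parental ones. ARNTL rose in isoform 8 alone, by 0.17 ± 0.06 (SE; adjusted p = 0.0359). That call ended without parental replicate 1 or 3 or without isoform 8 replicate 1 or 3 (adjusted p between 0.0856 and 0.137). In isoform 10 ARNTL stood 0.14 above the parental cells, which did not pass (adjusted p = 0.0791) but did with median-of-ratios scaling (0.0141).

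CLOCK (chr4:55427903-55547138), which also has histone acetyltransferase activity, rose in isoform 2 and fell in isoform 4. The parental libraries had 5.34, 6.40 and 6.48 TPM, those of isoform 2 had 7.10, 7.70 and 6.83 TPM, and those of isoform 4 had 4.42, 4.72 and 4.57 TPM. All 3 libraries of isoform 2 were above, and all 3 of isoform 4 below, every parental library; isoform 4 was also separate from the next lowest group. The change was 0.22 ± 0.08 in isoform 2 (adjusted p = 0.0221) and -0.34 ± 0.08 in isoform 4 (adjusted p = 0.00324). Without parental replicate 1, which was the lowest of the 3, the isoform 2 call was lost (0.14, adjusted p = 0.173), and likewise without isoform 2 replicate 2 (0.18, adjusted p = 0.104). The isoform 4 call was lost without replicate 2 of every group (adjusted p = 0.149). With median-of-ratios scaling CLOCK also passed in isoform 1 (0.23, adjusted p = 0.00277; 0.14 without it).

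NPAS2 (chr2:100820152-100996829), the paralogue that can replace CLOCK, went the same way in the same lines. It had 7.41, 8.12 and 7.26 TPM in parental cells, 8.71, 8.92 and 8.76 TPM in isoform 2, and 6.49, 6.38 and 7.19 TPM in isoform 4. The isoform 2 libraries stood above those of every other group. NPAS2 rose by 0.19 ± 0.05 in isoform 2 (adjusted p = 0.00364) and fell by 0.16 in isoform 4 (SE 0.05, adjusted p = 0.0358). The isoform 2 call was lost without replicate 1 of every group (adjusted p = 0.0578). The isoform 4 call was lost with median-of-ratios scaling (adjusted p = 0.0718). It was also lost without parental replicate 1 or 2, or without library A4N1 or A4N2 of isoform 4 (adjusted p between 0.0521 and 0.200).

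Of the PER genes, the repressor subunits that pair with CRY proteins, PER1 (chr17:8140472-8156506) moved both ways by small steps. Its parental libraries lay close together at 24.8, 25.1 and 24.9 TPM. Isoform 3 had 28.1, 27.3 and 27.3 TPM and isoform 1 had 28.5, 25.0 and 28.5 TPM, whereas isoform 7 had 21.8, 22.1 and 22.3 TPM and isoform 9 had 22.1, 22.0 and 23.1 TPM. Isoform 1 overlapped the parental range through its replicate 2, and the other 3 lines did not overlap it. PER1 rose by 0.14 ± 0.05 in isoform 3 (adjusted p = 0.0281) and by 0.13 ± 0.05 in isoform 1 (adjusted p = 0.0233). It fell by 0.17 in isoform 7 (adjusted p = 0.00475) and by 0.15 in isoform 9 (adjusted p = 0.0214). These calls lie near the limit of the test. The isoform 3 call ended without any 1 of its 6 libraries (adjusted p up to 0.0733), and the isoform 1 call without parental replicate 1 or 3 or isoform 1 replicate 1 or 3 (up to 0.129). The isoform 9 call ended without parental replicate 2 or 3 or isoform 9 replicate 1 or 2 (up to 0.0801), and the isoform 7 call with median-of-ratios scaling (0.0742).

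PER2 (chr2:238244038-238290102) passed the test in no line. Its parental libraries had 8.34, 9.55 and 8.40 TPM, and 11 of 12 line means were lower, the lowest being isoform 11 with 7.97, 8.21 and 6.47 TPM. In 6 lines all 3 libraries stood below every parental one. The smallest adjusted p was that of isoform 11, 0.057, for a change of -0.20 ± 0.08 with a 95% interval from -0.36 to -0.03. In 4 lines the unadjusted p was under 0.05 by limma, a limit for which no share over all genes was computed. None of these passed the correction over all genes.

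PER3 (chr1:7784320-7845177), whose product is the PER paralogue least needed for rhythm, fell in 4 lines and rose in none. Parental libraries had 5.98, 6.45 and 6.49 TPM, those of isoform 2 had 5.29, 4.48 and 4.43 TPM and those of isoform 1 had 4.25, 5.28 and 4.79 TPM. Neither line overlapped the parental range. The fall was 0.35 ± 0.07 in isoform 2 (adjusted p = 0.000174; log2 fold change -0.35) and 0.34 in isoform 1 (adjusted p = 0.00021). PER3 fell by 0.27 in isoform 5 and by 0.23 in isoform 4 (adjusted p = 0.013 and 0.0314). The isoform 4 call ended without parental replicate 2 or 3 or library A4N1 or A4N3 (adjusted p up to 0.106), and the isoform 5 call without parental replicate 2 or 3 or library A5N3 (up to 0.0691). In isoforms 6 and 9 the PER3 means, 6.36 and 6.33 TPM, were next to the parental 6.31 TPM.

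CRY1 (chr12:106991364-107093829), the strongest repressor of the loop and the most abundant member, separated the lines most clearly. Parental libraries had 46.6, 45.0 and 47.6 TPM. Those of isoform 4 had 55.3, 56.1 and 56.2 TPM, the 3 highest values of the 39, and those of isoform 2 had 38.0, 38.1 and 39.4 TPM, the 3 lowest. Isoform 4 was separate from the next highest group, isoform 5 with 53.5, 49.5 and 50.03 TPM, and isoform 2 from the next lowest, isoform 9 with 41.0, 42.2 and 44.2 TPM. The libraries of all other neighbouring groups in the order overlapped. CRY1 rose by 0.26 ± 0.05 in isoform 4 (adjusted p = 8.652e-05) and fell by 0.26 in isoform 2 (adjusted p = 1.126e-05). Without replicate 2 of every group the isoform 4 call was lost (adjusted p = 0.0547). A smaller rise of 0.13 ± 0.05 in isoform 5 (adjusted p = 0.0431) and a fall of 0.13 in isoform 9 (adjusted p = 0.0425) also passed.

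The weaker CRY1 calls depended on single libraries and on the scaling. The isoform 5 call ended without any 1 parental library or without library A5N1 or A5N3 (adjusted p up to 0.235). The isoform 9 call ended without parental replicate 1 or 3 or isoform 9 replicate 1 or 2 (up to 0.152), and with median-of-ratios scaling (0.052). In isoform 1, CRY1 had 42.1, 41.6 and 45.3 TPM and a change of -0.11 (adjusted p = 0.0389), which turned to 0.003 with median-of-ratios scaling and was lost without parental replicate 1 or 3 or isoform 1 replicate 1 or 2 (up to 0.153). CRY2 (chr11:45847118-45883248), the other cryptochrome, passed in no line. Its group means ran from 9.57 TPM in isoform 4 to 10.9 TPM in isoform 8 around a parental 10.6 TPM, its libraries overlapped the parental ones in all 12 lines, and its smallest adjusted p was 0.233.

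**Figure D2:**
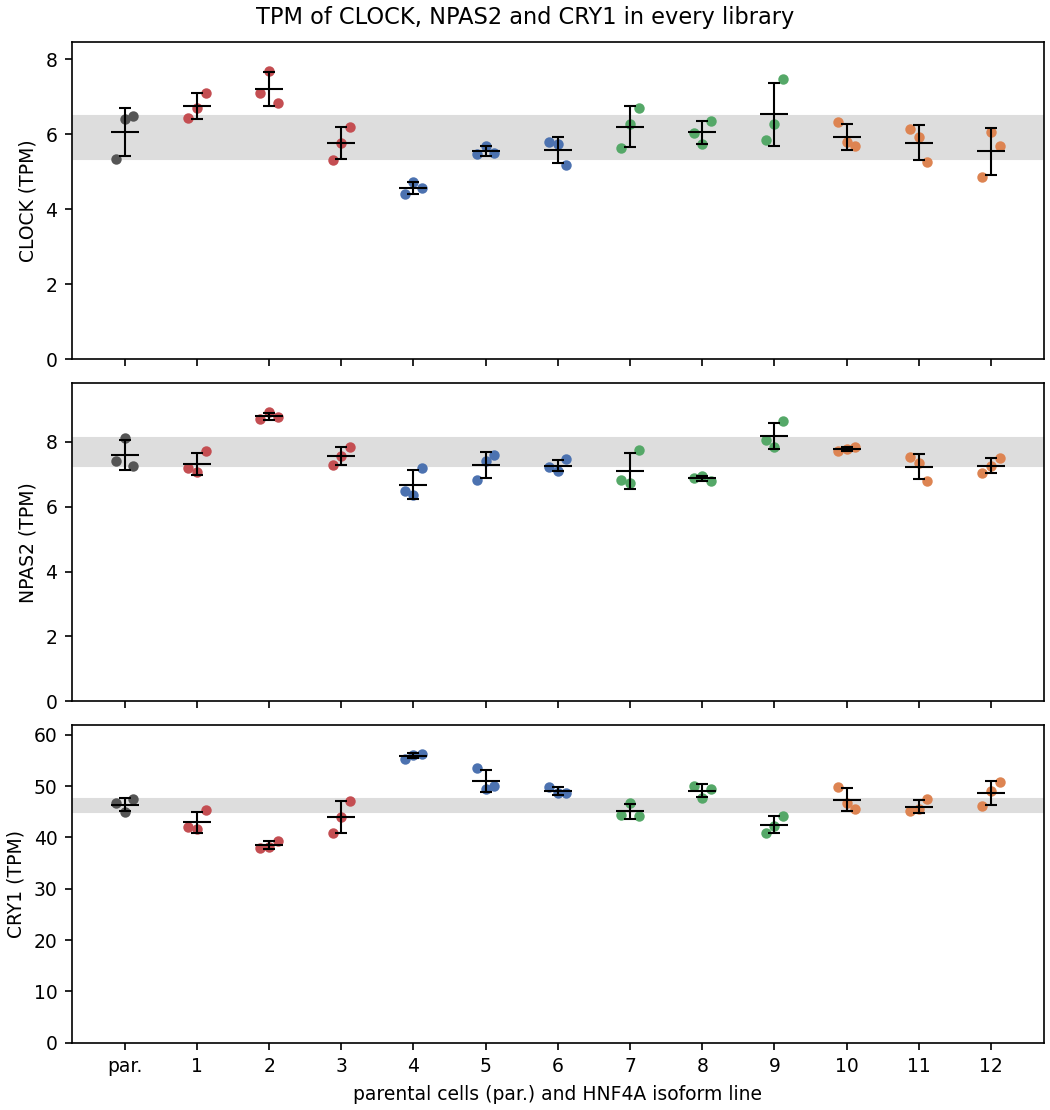
TPM of CLOCK, NPAS2 and CRY1 in every library (points) of the parental cells (par.) and the 12 isoform lines, with mean and SD of 3 libraries (bars); the grey band is the range of the parental libraries and colours mark isoforms 1-3, 4-6, 7-9 and 10-12. Isoform 2 lies above the band for CLOCK and NPAS2 and below it for CRY1, and isoform 4 lies below it for CLOCK and above it for CRY1.

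BHLHE40 (chr3:4979116-4985323), an E-box repressor that is also induced by hypoxia and other stimuli, had the largest changes of the 10 and the mean of every line was below the parental mean. Parental libraries had 27.1, 28.1 and 25.5 TPM. The libraries of isoform 2 had 17.1, 18.4 and 15.9 TPM, those of isoform 5 had 17.0, 19.2 and 16.1 TPM, those of isoform 4 had 19.0, 20.5 and 17.0 TPM and those of isoform 8 had 18.5, 18.0 and 19.8 TPM. All of these lay below the lowest parental library. The mean was 36.4% lower than the parental mean in isoform 2, 35.2% lower in isoform 5, 30.3% lower in isoform 8 and 30.2% lower in isoform 4.

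BHLHE40 fell in 6 lines by limma: by 0.62 in isoform 2 (SE 0.12, adjusted p = 3.69e-05), by 0.60 in isoform 5 (adjusted p = 0.000493), by 0.50 in isoform 4 (adjusted p = 0.00295) and in isoform 8 (adjusted p = 0.0012), by 0.43 in isoform 10 (adjusted p = 0.00428) and by 0.36 in isoform 1 (adjusted p = 0.00909). The first 5 of these held without each single library. Without replicate 1 of every group, taken by column number in isoforms 4 and 5, the isoform 2 call held and the others were lost (adjusted p = 0.0528, 0.0823, 0.0574 and 0.0699 for isoforms 5, 4, 8 and 10). BHLHE40 also differed between replicate numbers (adjusted p = 0.00519 for the replicate term in limma). The isoform 1 libraries spread widely, at 19.2, 26.6 and 17.5 TPM, so that replicate 2 stood inside the parental range. That call ended without isoform 1 replicate 3 (-0.24, adjusted p = 0.098) and with median-of-ratios scaling (-0.25, adjusted p = 0.0652). In isoforms 3, 9 and 6 the change was between -0.10 and -0.04, and the libraries overlapped the parental ones.

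DBP (chr19:48630030-48637438), a PAR bZIP factor that carries clock output to metabolic genes, fell in 4 lines. It had 11.6, 12.2 and 12.5 TPM in parental cells, 8.64, 8.03 and 8.59 TPM in isoform 1 and 7.18, 9.51 and 9.64 TPM in isoform 2, with no overlap for either line. The change was -0.47 ± 0.11 in isoform 1 (adjusted p = 0.000368) and -0.43 ± 0.11 in isoform 2 (adjusted p = 0.00113). DBP fell by 0.31 in isoform 7, with 9.78, 9.11 and 9.66 TPM (adjusted p = 0.0198), and by 0.30 in isoform 11, with 8.77, 10.3 and 9.90 TPM (adjusted p = 0.0289). Both of the latter were lost with median-of-ratios scaling (adjusted p = 0.0533 and 0.0617). The isoform 7 call ended without parental replicate 2 or 3 or isoform 7 replicate 2 (up to 0.0686), and the isoform 11 call without parental replicate 2 or 3 or isoform 11 replicate 1 or 3 (up to 0.127). DBP changed by between -0.02 and 0.01 in isoforms 4, 5 and 6.

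**Figure D3:**
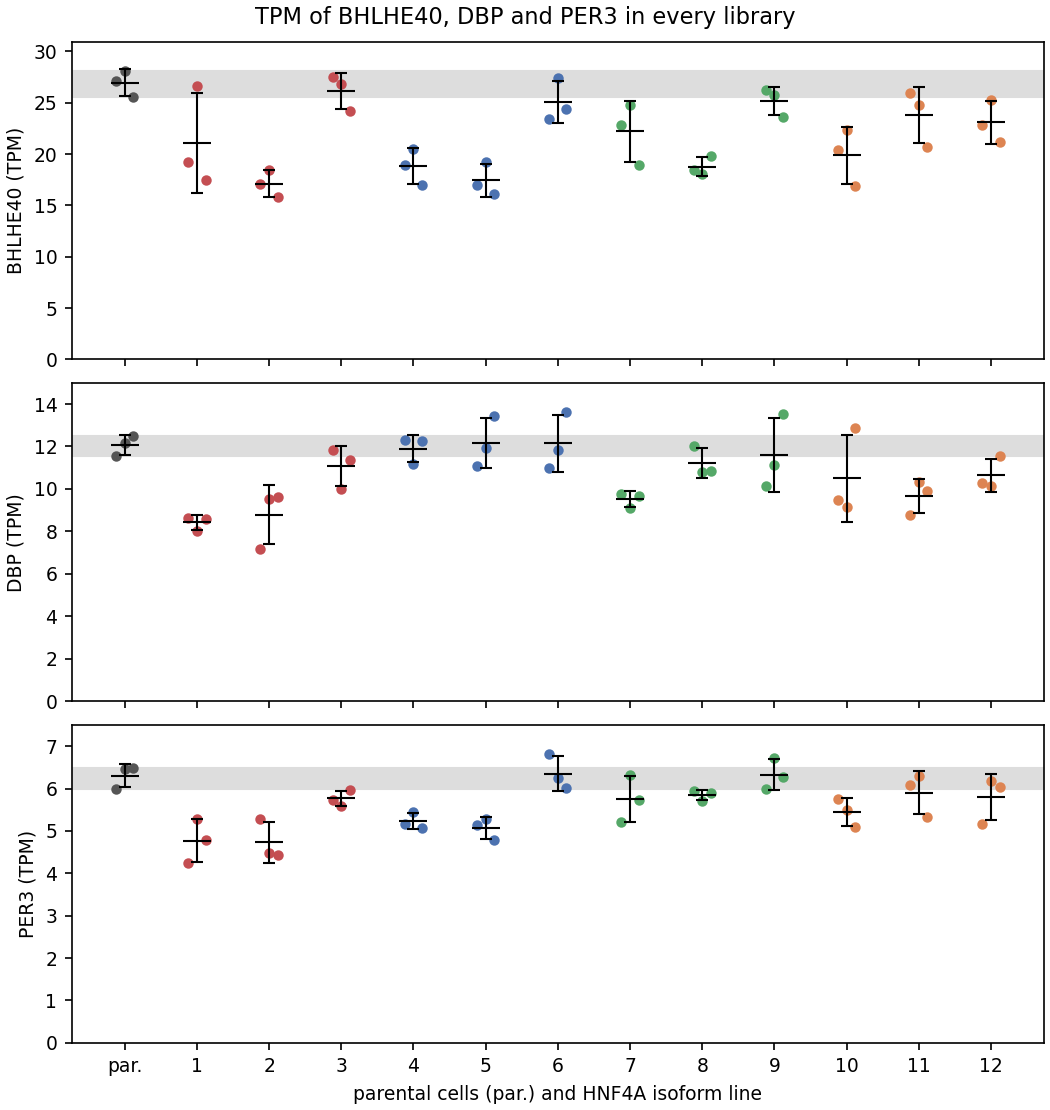
TPM of BHLHE40, DBP and PER3 in every library (points) of the parental cells (par.) and the 12 isoform lines, with mean and SD of 3 libraries (bars); the grey band is the range of the parental libraries and colours mark isoforms 1-3, 4-6, 7-9 and 10-12. All 3 genes lie below the band in isoform 2, whereas in isoforms 4 and 5 BHLHE40 and PER3 lie below it and DBP does not.

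Counted without a test, all 3 libraries of a line stood above all 3 parental libraries in 10 of the 120 pairs, or 8.3%, against 19% of all gene-line pairs. They stood below in 34 pairs, or 28.3%, against 26.1%. In the other 76 pairs the libraries overlapped. BHLHE40 and PER3 each contributed 7 of the 34 pairs below, PER2 contributed 6 and DBP 5, and CRY1 gave 4 of the 10 pairs above.

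A moderated F test of the lines leaves out the parental mean, though the parental libraries enter its estimate of spread. By this test the 12 lines differed from each other in 8 of the 10 clock genes. That is close to the 77.4% of all tested genes that passed. CRY1 had the largest F, 18.88 (adjusted p = 1.223e-09), then PER1 with 8.91. PER2 (adjusted p = 0.0821) and CRY2 (adjusted p = 0.41) did not pass, though both did with median-of-ratios scaling (0.0277 and 0.0281), and PER2 also without isoform 12 replicate 1 (0.0486). Leaving out 1 replicate number in every group ended the F test call of ARNTL (without replicate 1, 0.243, or 2, 0.126), NPAS2 (without replicate 2, 0.0511) and BHLHE40 (without replicate 1, 0.0675). No member had line means spanning 1 on the log2 scale, a span reached with the test passed by 9.46% of genes. The widest spans were those of BHLHE40 at 0.58 and CLOCK at 0.56, and the narrowest was that of CRY2 at 0.17, which lay at percentile 3.8 of all genes.

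Isoforms were also compared by form, with each line as 1 unit, since each isoform is 1 line. The labels do not state these forms, which follow the usual naming of HNF4A isoforms: isoforms 1-3 and 4-6 differ in an exon near the N-terminus, 7-9 and 10-12 start from another promoter, and within each set of 3 the C-terminus is full-length, carries an insertion or is shortened. Of 50 pairs of a member and a contrast, 3 passed adjusted p under 0.05, all of them in isoforms 4-6 against 1-3, where 34.6% of all genes passed. The members' share there, 3 of 10, did not exceed that of all genes. In the other contrasts 11.6% (isoforms 7-9 against 1-3), 0% (10-12 against 7-9), 0% (insertion against full-length) and 0.0133% (shortened against the rest) of genes passed, and no member. A difference of 1 was reached by 0 of the 50 pairs and by 0.496% of gene-contrast pairs. DBP was higher in isoforms 4-6 by 0.34 ± 0.09 (adjusted p = 0.0156), with 11.9, 12.2 and 12.1 TPM against 8.42, 8.78 and 11.1 TPM. CRY1 was higher by 0.31 ± 0.07 (adjusted p = 0.0123), with 55.9, 51.0 and 49.0 TPM against 43.0, 38.5 and 44.0 TPM. CLOCK was lower by 0.28 (SE 0.09, adjusted p = 0.0463), with 4.57, 5.55 and 5.58 TPM against 6.75, 7.21 and 5.76 TPM. The line means did not overlap between the 2 sets for any of the 3 genes. These genes were picked by the test on the same line means, so the separation adds no support to it. The CLOCK call ended without isoform 1 replicate 3, isoform 2 replicate 2, isoform 3 replicate 2 or 3, isoform 6 replicate 3 or isoform 9 replicate 1 (adjusted p between 0.0501 and 0.0701). BHLHE40 stood 0.32 ± 0.08 higher in the shortened forms than in the others, which did not pass (adjusted p = 0.127).

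Over the 13 group means, CLOCK and CRY1 ran opposite to each other, with Pearson's r of -0.916 on the log2(TPM + 1) scale. This is a description of 13 groups, with no test, chosen as the most extreme of the 45 pairs of members. It rests in part on isoforms 2 and 4, and was -0.759 without them. The opposition was between groups and not between libraries: after subtracting group means, the 39 libraries gave r of 0.442 for CLOCK and CRY1. NPAS2 followed CLOCK (r = 0.72, but 0.281 without isoforms 2 and 4) and opposed CRY1 (-0.811, and -0.507 without them). PER3 and BHLHE40 ran together (0.791, and 0.702 without isoforms 2 and 4), and CRY1 ran with DBP (0.657, and 0.496). With the level of HNF4A over the 12 lines, CRY2 had r of -0.665 and DBP 0.594, and the other 8 members lay between -0.271 and 0.38.

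**Figure D4:**
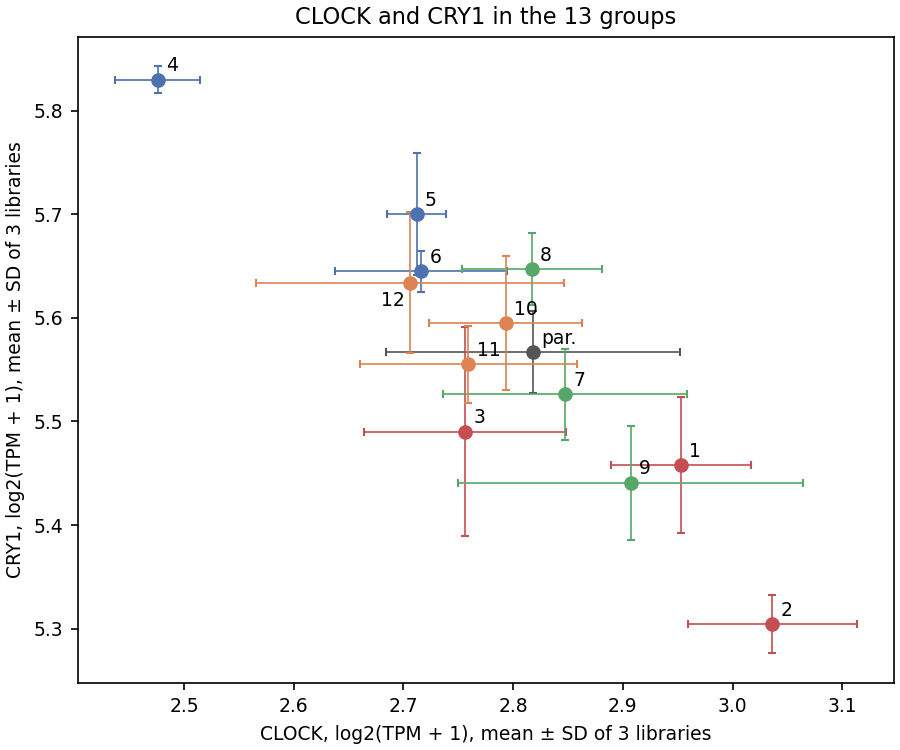
Mean of CLOCK (x axis) against mean of CRY1 (y axis) in the 13 groups, both as log2(TPM + 1), with SD of 3 libraries; numbers are isoforms, par. is the parental group and colours mark isoforms 1-3, 4-6, 7-9 and 10-12. Isoform 4 lies at the upper left and isoform 2 at the lower right, with the parental cells between them.

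Some other genes of the clock pathway had larger changes than the 10 members. Of 11 other loop genes reported here, 8 were expressed enough to be tested, RORA, RORB and CIART being the others. None of the 8 passed a change of 1 in any line, where 6.57% of all genes did so in at least 1 line. The REV-ERB genes NR1D1 and NR1D2, which encode the repressors of ARNTL, were looked at after their values were seen. NR1D1 rose in 8 lines, by up to 0.84 in isoform 1 (11.1 ± 0.662 TPM in parental cells and 20.7 ± 1.18 TPM there). NR1D2 fell in 8 lines, by up to 0.77 in isoform 2 (13.7 ± 0.461 and 7.62 ± 0.893 TPM). Both counts were unchanged with median-of-ratios scaling. In isoforms 1, 2, 3, 7, 8, 10 and 11 NR1D1 rose while NR1D2 fell, and their common target ARNTL rose in 1 of these lines, isoform 8.

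BHLHE41, the paralogue of BHLHE40, fell in 6 lines, by up to 0.84 in isoform 2, and rose by 0.67 in isoform 9 (2 higher and 6 lower with median-of-ratios scaling). In isoforms 1, 2, 4, 5 and 10 both paralogues fell, and in isoform 8 BHLHE40 fell with BHLHE41 at -0.01. ARNTL2, the paralogue of ARNTL, had line means spanning 1.02 (F = 46.65) beside 0.25 for ARNTL (F = 3.31). It rose by 0.55 in isoform 6 and by 0.28 in isoform 5, and fell in 5 lines. BHLHE41 and ARNTL2 were likewise chosen after their values were seen.

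Of 7 reported genes for clock protein turnover 6 were tested and none passed a change of 1 in any line, against the same 6.57%. CSNK1E, a kinase that marks PER proteins, and USP2, a deubiquitinase of the loop, each fell in 8 lines, by up to 0.26 and 0.63. BTRC, which takes PER proteins to degradation, and the kinase GSK3B passed in no line. With median-of-ratios scaling GSK3B was higher in 2 lines and CSNK1E lower in 7. In the authors' deposited table GSK3B was higher in 5 lines, BTRC higher in 1, and CSNK1E lower in 4. All 8 output genes were tested, and 1 passed a change of 1, beside 6.57% of all genes in at least 1 line. That gene, CDKN1A, a cell cycle inhibitor also under the control of other pathways, passed in 3 lines. It stood at 104 ± 3.29 TPM in parental cells and 342 ± 18.7 TPM in isoform 1, a rise of 1.71 ± 0.09 (adjusted p = 1.38e-16). Chosen after their values were seen, PPARA rose in 10 lines and WEE1 and TSC22D3 fell in 8 and 7. In isoform 1 the medians of the 3 lists were -0.18 (loop), -0.13 (turnover) and 0.38 (outputs), beside -0.07 for the members and -0.11 for all genes.

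**Figure D5:**
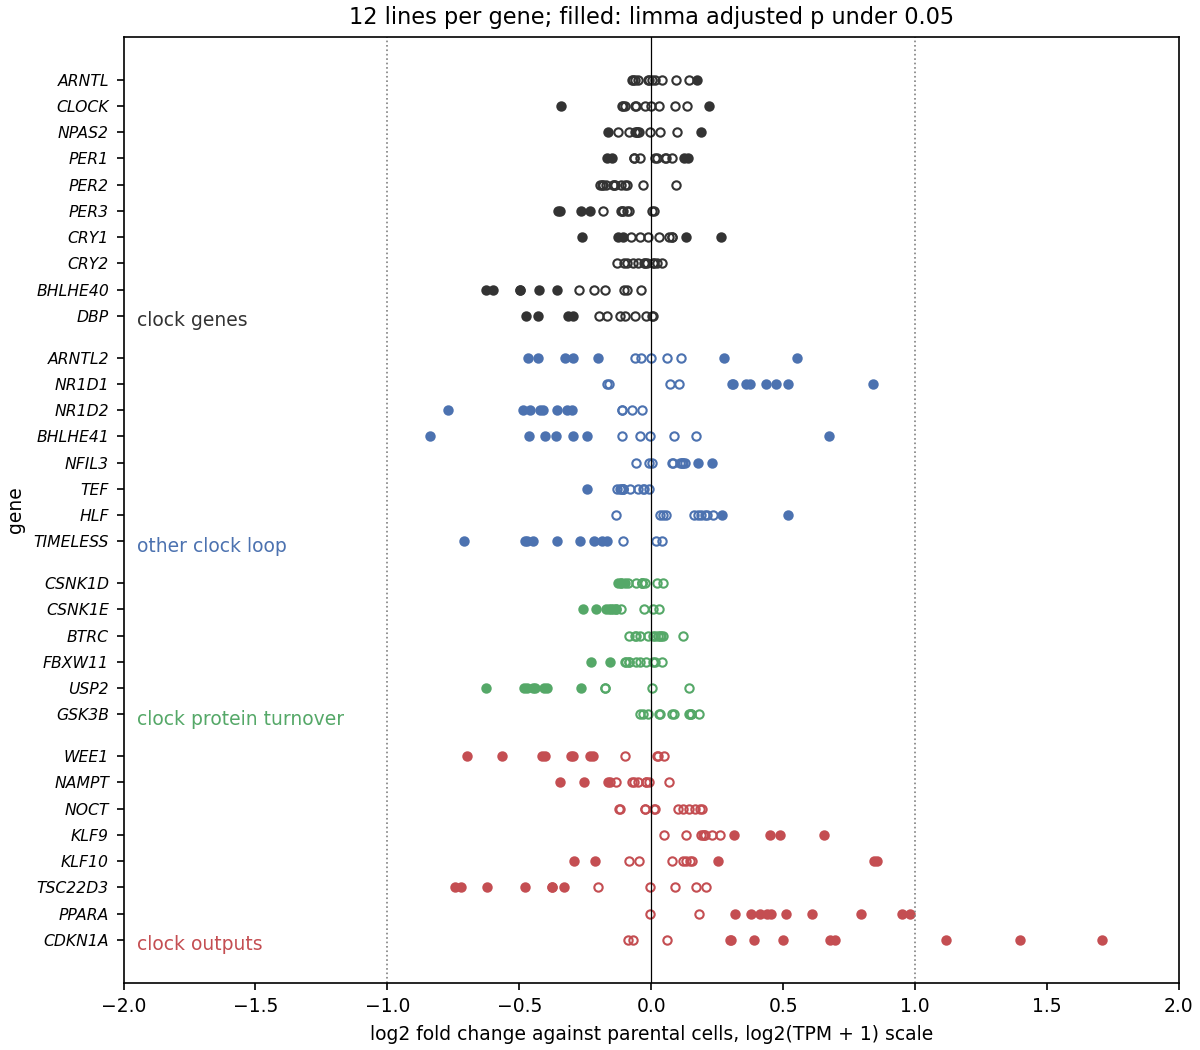
Log2 fold change against parental cells (x axis, log2(TPM + 1) scale) of the 10 clock genes and of the tested genes of 3 further clock lists (rows), with 1 point per isoform line; filled points have limma adjusted p under 0.05 and dotted lines mark a change of 1. The clock genes keep within 0.62 of 0, whereas CDKN1A reaches beyond 1.

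Several members respond to growth stimuli, hypoxia or glucocorticoids in other settings, so lists for these were measured beside them. Of 12 immediate early genes 6 passed a change of 1 in at least 1 line, against 6.57% of all genes, and they went both ways. JUN did so upward in 7 lines, FOS in 3, and ATF3 and DUSP1 in 1, whereas IER3 (-1.18 in isoform 10) and FOSB (-1.12 in isoform 2) did so downward in 1 line each. At adjusted p alone IER3 fell in 12 lines and FOSL1 in 8. JUN rose by 2.38 in isoform 1 and by 2.05 in isoform 2, where PER1 stood at 0.13 and -0.06. Of 10 hypoxia genes 5 passed a change of 1, all upward: CA9 in 3 lines, VEGFA and SLC2A1 in 2, and NDRG1 and ADM in 1. VEGFA rose by 1.90 in isoform 1 and 1.59 in isoform 2, but EGLN3 (-0.56 and -0.49) and PFKFB4 (-0.22 and -0.15) fell in both, and PDK1 and BNIP3 passed in no line. The summed hypoxia list ran from 406 to 436 TPM in isoform 1 against 193 to 208 TPM in parental cells. BHLHE40 fell in both of these lines. Of the glucocorticoid list 4 of 5 genes were tested, with SGK1 falling by 1.12 in isoform 1 and 1.18 in isoform 2 and TSC22D3 by 0.74 and 0.72. The summed list stood at 84.5 to 89.0 TPM in isoform 1 against 118 to 122 TPM in parental cells. That sum includes PER1 itself, at 24.9 TPM in parental cells, and its largest part was FKBP5, at 85.8 TPM there. PER1 rose in isoform 1. The part of these stimuli in the changes of the clock genes was not tested.

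The authors' deposited tables also compare each line with the parental cells. At an adjusted p under 0.05 they held 28 of the 120 pairs, 11 higher and 17 lower, against 28.2% of all gene-line pairs in those tables. Of these, 21 were among the 28 pairs found on TPM, all in the same direction. The TPM calls missing there were all falls. They were NPAS2 in isoform 4, PER1 in isoforms 7 and 9, CRY1 in isoforms 1 and 9, DBP in isoform 11 and BHLHE40 in isoform 1. PER1 was higher in 3 lines and lower in 0 in the authors' deposited table. The largest change of a member in the authors' deposited table was that of BHLHE40 in isoform 5, -0.60. CRY1 stood at 0.31 in isoform 4 and -0.14 in isoform 2 in the authors' deposited table. CRY1 in isoform 1 was at 0.03 there, opposite to its TPM value. The authors' deposited table also holds pairs past the threshold where the TPM fit did not pass. Higher there were ARNTL in isoform 10 (0.19), CLOCK in isoform 1 (0.29), and PER1 and CRY1 in isoform 8 (0.11 each). Lower there were PER2 in isoforms 5 and 6 (-0.17 and -0.18) and BHLHE40 in isoform 12 (-0.19).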

How the data were processed

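The authors deposited 13 tables, 1 per group, with TPM for each library. The submitters' processing notes name Trimmomatic 0.36, FastQC 0.11.5, kallisto 0.44.0, DESeq2 1.22.2 and GRCh38.p12, without role or order. Per the labels' protocols, libraries were poly(A)-selected and strand-specific. TPM columns summed to between 999972.6 and 999987.7, so the depth of each library is unknown and no counting interval was possible. The deposited tables of the lines also give a mean normalised count (a signal), a score (the test statistic), a log2 fold change, its standard error and a p-value, raw and adjusted, per the file headers. These entered no fit here. Library columns were matched to samples by name, and isoforms 4 and 5 carry no usable replicate number. Of the tables, 12 HNF4A rows were summed.

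Models were fitted on log2(TPM + 1) over all 39 libraries using R 4.3.3 and limma 3.58.1 (eBayes with a trend), for the 15003 genes averaging 1 TPM or more, with 26 residual degrees of freedom and Benjamini-Hochberg adjustment within each comparison. Fold changes of low genes are understated on this scale. A moderated F test compared the 12 lines, and an additive model of 12 line means compared isoform forms. The fits were tested on simulated data. Alternatives were another pseudocount, other filters, median-of-ratios scaling, no trend, a replicate block, one-line fits, libraries as units, the authors' comparison and leaving out libraries. All members were named, and list genes past a change of 1 (at most 6 per list); 2 genes of these lists are not reported here. The members and lists were chosen with earlier results of these data known. Figures were drawn with matplotlib 3.10.9. E-boxes were searched in RefSeq promoter windows of GRCh38.p14, where ARNTL is listed as BMAL1.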

Additional observations from a re-analysis of the deposited data

Results flagged for a closer look

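For 8 of the 10 clock genes the effects of the 12 lines differed by limma's moderated F test, and each is listed with its Benjamini-Hochberg adjusted p and the span of its line means on the log2(TPM + 1) scale. The repressor CRY1 had 1.223e-09 and a span of 0.53, from isoform 2 to isoform 4. PER1 had 3.099e-06 and a span of 0.31. The CLOCK paralogue NPAS2 had 6.297e-05 and CLOCK itself 6.96e-05, with spans of 0.35 and 0.56. BHLHE40 had 8.114e-05 with a span of 0.58. PER3 had 0.0002788 and DBP 0.0006835, with spans of 0.36 and 0.48. ARNTL had 0.007116 and a span of 0.25. The calls of ARNTL, NPAS2 and BHLHE40 ended when 1 replicate number was left out of every group. Since 77.4% of all genes passed this test, passing it does not set the clock genes apart.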

How the results depend on the processing

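Of the 28 member-line pairs past adjusted p under 0.05 by limma, 14 kept their call without each single library, 21 with median-of-ratios scaling and 6 under every alternative computed. Those 6 were all lower: PER3 and DBP in isoforms 1 and 2, and CRY1 and BHLHE40 in isoform 2. CRY1 in isoform 1 reversed, to 0.003 with median-of-ratios scaling and to 0.034 in the authors' deposited table. The number of pairs higher, 7, became 4 in fits of 1 line with the parental cells and 11 in the authors' deposited table; it was 2 without parental replicate 1, 3 without parental replicate 3, and between 1 and 8 over all fits with libraries left out, being 1, 2 and 4 without replicates 1, 2 and 3 of every group. The number lower, 21, ran from 12 to 23, with 12 without all replicates 1 or all replicates 2. The F test among lines gave 6 to 9 members, and the isoform forms gave 2 to 3 pairs, but 12 with libraries in place of lines as units, since libraries of 1 line share that line. No pair passed a change of 1 under any of these. The cause of these shifts was not tested, and fits without a replicate of every group have fewer libraries.

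Among the single results (70, of members and list genes), 1159 of 1320 alternatives kept direction and side of the threshold. The replicate block over the 10 lines with numbered libraries gave 6 pairs higher, 17 lower and 9 members in the F test; over the same libraries without it, a fit added after seeing the data, it was 5 and 14. Same-numbered libraries did not all deviate together (in 0 of 10 lines was every pair's correlation over 0.1), though 29 of 33 were closest to their own number. BHLHE40 was lowest in replicate 3 in 9, and CRY2 highest in replicate 2 in 10, of 11 numbered groups. Depth is unknown from TPM, so it could not be weighed.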
